A study of Mus musculus with 30 samples.

Results

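The 38 genes described here encode the machinery of autophagy and of the lysosome in which it ends. They were listed by symbol, with no use of measured values, and were found among 46113 mouse genes counted in every library. The list held 5 genes of the initiation complex, 5 of the class III PI3-kinase complexes, 3 for lipid supply and PI3P binding, 8 of the conjugation machinery and 5 ATG8 proteins. It also held 3 cargo receptors, 2 transcription factors, 5 lysosome genes and 2 subunits of the tethering complex HOPS. The names of 36 stand in the files as listed, while Gabarap and Atg4a are each counted under 2 entries, which were summed by gene identifier.

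In autophagy a double membrane grows around cytosol, protein aggregates or organelles, closes into an autophagosome and fuses with a lysosome, whose enzymes break the content down. The ULK1 kinase complex starts the process under control of the nutrient sensors mTORC1 and AMPK, a PI3-kinase complex marks the membrane with PI3P, and a ubiquitin-like conjugation system attaches ATG8 proteins such as LC3B to it. Autophagy is known to be needed for the upkeep of haematopoietic stem cells (HSCs) in mice, and mRNA levels do not measure its flux.

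RNA was sequenced from 30 libraries, each holding 100 sorted bone marrow cells, and the mice were C57BL/6 animals of 8 to 10 weeks. HSCs, sorted as Lineage- EPCR+ CD150+ CD48- cells, came from untreated mice (n = 4 libraries) and from mice 6 days (n = 4) or 10 days (n = 6) after 5-fluorouracil (5-FU), a drug that kills dividing cells. In a second experiment HSCs of untreated mice were taken uncultured (n = 4) or after culture of 1 day (n = 4), and in a further one CD48- HSCs (n = 4) were set beside CD48+ progenitor cells of the otherwise same gate (n = 4), both taken 10 days after 5-FU. The 5-FU dose and the culture medium are not given in the labels, nor is it stated that replicates came from separate mice, so p-values measure only the spread between these libraries, which may be technical. In bulk libraries of this kind fewer cells of a type and less RNA per cell cannot be told apart.

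The libraries held 5208722 to 12243208 exon reads, and the 38 genes had between 27 and 8947 exon reads in a library. Levels are given as CPM (exon read counts scaled to a common library size with TMM factors), while differences are edgeR log2 fold changes, called at a Benjamini-Hochberg adjusted p under 0.05 over all tested genes. All 38 genes passed the filter on low counts in the fits of total exon reads on which the calls rest. The 12 HSC marker genes were detected in every group, with a summed level of 6201 to 6867 CPM in untreated and 3521 to 3625 CPM in day-6 HSCs. Of the 12, 7 were lower at day 6, 11 in culture and 11 in CD48+ cells, and their part in the results was not tested. Transcripts of other cells stood out in single libraries. The sum of 18 macrophage markers was 2266 CPM in day-6 replicate 1 against 297 to 552 in the other day-6 libraries, and 2574 CPM in CD48+ replicate 3. The sum of 14 erythroid markers was 2462 to 6453 CPM in untreated and 319 to 447 CPM in day-6 HSCs, and 9514 CPM in CD48- replicate 3. Summed neutrophil and granulocyte progenitor markers were at 1982 CPM in untreated replicate 3, against 32.0 to 40.8 CPM in the other untreated libraries. Stromal markers reached 463 CPM in day-10 replicate 3. Intron reads were 67.8 to 69.6% of reads on genes in untreated, 60.6 to 62.4% in day-6, 69.6 to 70.8% in uncultured and 62.3 to 62.7% in cultured HSCs. The part of erythroid, neutrophil and stromal transcripts and of intron content was not tested either. Only counts are given, with some such libraries left out or with intron reads in place of exon reads. For these, 9 libraries high in transcripts of other cells were left out, a set chosen after seeing the data.

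Set per transcript length, as TPM, most of these genes were well expressed in untreated HSCs. Their median was 59.3 TPM, against 21.0 TPM over 16017 detected genes. Ctsd, which encodes the aspartic protease cathepsin D, was highest at 426 ± 46.5 TPM (SD, n = 4). Map1lc3b, which encodes LC3B, followed at 316 ± 14 TPM, Sqstm1, which encodes the cargo receptor p62, at 290 ± 11.4 TPM, and the ATG8 gene Gabarapl1 at 264 ± 31.9 TPM. The last of these overlapped Sqstm1 within their SDs. Lamp1, a glycoprotein of the lysosomal membrane, stood at 212 ± 24.3 TPM and Ulk1, the initiating kinase, at 155 ± 15.2 TPM. The lowest were the protease gene Atg4a at 7.0 ± 2.16 TPM, the receptor Optn at 10.6 ± 1.05 TPM, the conjugating enzyme genes Atg10 at 12.7 ± 3.46 TPM and Atg3 at 13.8 ± 2.04 TPM. Tfeb, a transcription factor that controls lysosomal genes, was at 16.5 ± 2.95 TPM. Some of these levels rest on reads that also match other loci: uniquely placed reads were 0% for Gabarap, 0.934% for Atg4a, 17.0% for Gabarapl2, 41.9% for Tfe3 and 66.1% for Map1lc3b, so the values of these genes are uncertain. For the other members the share was 88.0% or more.

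**Figure D1:**
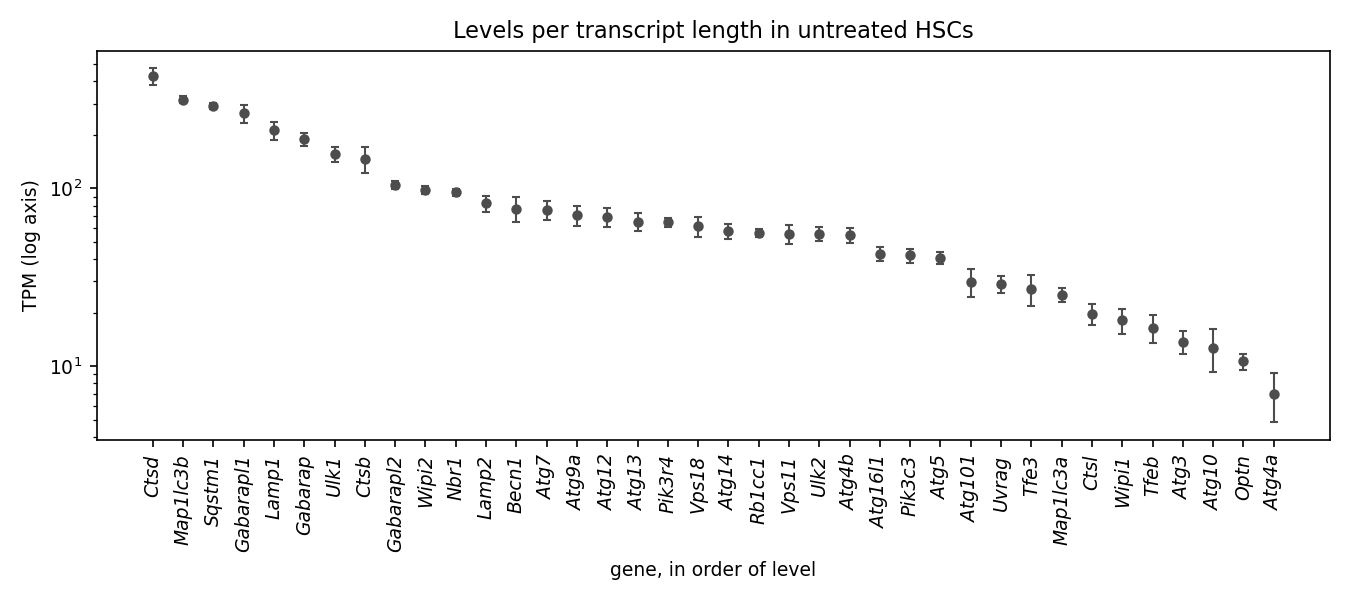
Level per transcript length of the 38 genes in untreated HSCs, in order of level, as TPM on a log axis; points are means and bars are SD over 4 libraries. Ctsd is highest at 426 TPM and Atg4a lowest at 7.0 TPM.

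Tfeb and Tfe3 encode factors that bind an E-box, and promoters of lysosomal and autophagy genes are known for carrying it. The motif CACGTG, and TCACGTG as its extension, were searched on both strands from 250 bases before to 50 bases after each RefSeq start site on GRCm38.p6, the extension being part of the matches of the shorter motif. A promoter was matched for 30 of the 38 genes. CACGTG stood in 7 of these 30 (23.3%), against 8.09% of 27025 genes, and TCACGTG in 5 (16.7%) against 4.29%. The 4 promoters shown are those of members that hold TCACGTG and passed the test in 3 or more of the 5 comparisons below, Ctsd and Lamp1 with rises in 3 each, Atg7 with falls in 3, and Atg14 with falls in 3 and a rise from day 6 to day 10. Each runs 5′ to 3′ on the gene's strand, with CACGTG in capitals.
Atg14, chr14:47568385-47568684, minus strand: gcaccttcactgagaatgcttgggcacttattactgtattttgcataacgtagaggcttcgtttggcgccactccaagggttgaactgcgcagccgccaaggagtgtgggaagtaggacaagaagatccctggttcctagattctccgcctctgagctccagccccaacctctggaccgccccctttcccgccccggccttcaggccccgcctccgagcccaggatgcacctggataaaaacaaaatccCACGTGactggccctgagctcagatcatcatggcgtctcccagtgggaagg
Atg7, chr6:114670846-114671145, plus strand: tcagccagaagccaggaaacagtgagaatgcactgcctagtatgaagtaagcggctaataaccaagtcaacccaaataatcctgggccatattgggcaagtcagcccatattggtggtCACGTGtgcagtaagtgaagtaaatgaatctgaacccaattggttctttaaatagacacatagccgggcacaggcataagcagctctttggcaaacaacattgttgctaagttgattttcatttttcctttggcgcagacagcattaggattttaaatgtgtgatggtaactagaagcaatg
Ctsd, chr7:142387778-142388077, minus strand: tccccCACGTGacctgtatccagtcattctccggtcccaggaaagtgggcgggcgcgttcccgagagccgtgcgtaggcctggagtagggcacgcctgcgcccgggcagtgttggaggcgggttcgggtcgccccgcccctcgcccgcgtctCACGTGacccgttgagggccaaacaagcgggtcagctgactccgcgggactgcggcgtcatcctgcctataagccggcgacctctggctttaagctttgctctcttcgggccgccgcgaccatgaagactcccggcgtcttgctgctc
Lamp1, chr8:13158911-13159210, plus strand: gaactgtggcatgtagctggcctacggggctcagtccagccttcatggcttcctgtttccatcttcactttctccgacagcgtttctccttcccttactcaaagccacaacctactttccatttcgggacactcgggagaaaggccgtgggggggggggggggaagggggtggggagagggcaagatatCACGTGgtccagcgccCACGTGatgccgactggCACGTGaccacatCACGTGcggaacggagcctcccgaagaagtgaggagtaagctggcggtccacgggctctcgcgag
The first base of the motif lay 1 base before the start site of Atg14 and 132 bases before that of Atg7. Ctsd held it at 245 and 98 bases before the start, and Lamp1 held it 4 times, at 61, 45, 28 and 15 bases before the start. The start used for Atg7 lies inside the span the count files give for the gene (chromosome 6, 114643097 to 114860614). A match of letters is a description, and whether either factor binds there was not tested. The 4 windows were chosen for holding the motif, and whether it has a part in the changes of their genes was not tested.

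The first comparison asked how HSCs stood 6 days after 5-FU. The kinase Ulk1 and its scaffold Rb1cc1, the PI3-kinase adaptor Atg14, the conjugation enzymes Atg10 and Atg7 and all 3 cargo receptors were lower than in untreated HSCs. The lysosomal membrane gene Lamp1 was higher, and so were, through 1 library, the cathepsin genes Ctsd and Ctsb. In all, 4 of 38 genes rose and 15 fell, where 25.7% of 12886 tested genes rose and 25.7% fell. The members' median log2 change was -0.19, against -0.036 over all tested genes, and 29 of the 38 values were below 0.

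The initiation complex fell in 4 of its 5 genes. Ulk1 (gene 22241, chromosome 5, 110784489 to 110810121, mm10) was at 334, 247, 285 and 292 CPM in the 4 untreated libraries and at 143, 120, 133 and 140 CPM at day 6. Every day-6 library was far below every untreated one. The log2 change was -1.11 ± 0.135 (SE), 2.16-fold lower, with an adjusted p of 8.52e-06. Rb1cc1 (gene 12421, chromosome 1, 6214662 to 6276374), which encodes the scaffold FIP200, was at 139, 129, 133 and 148 CPM untreated and at 83.3, 86.3, 92.6 and 76.4 CPM at day 6. The groups did not overlap, with a log2 change of -0.70 ± 0.082 and an adjusted p of 6.54e-06. Atg13, the regulatory subunit, fell by 0.40 and Ulk2, a second kinase of the family, by 0.33 on the log2 scale. Atg101, which stabilises Atg13, did not pass (log2 change 0.19, adjusted p = 0.367).

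Of the class III PI3-kinase genes 1 fell. Atg14 (gene 100504663, chromosome 14, 47540893 to 47568434) directs the kinase to the site of autophagosome formation. It was at 68.2, 64.9, 67.3 and 55.3 CPM untreated and at 32.9, 33.4, 29.99 and 37.8 CPM at day 6, a log2 change of -0.93 ± 0.115 (adjusted p = 9.54e-06). The kinase subunit Pik3c3, its partner Pik3r4, the regulator Becn1 and Uvrag, which marks the complex of the later endosomal step, did not pass (log2 changes -0.26, -0.17, 0.092 and 0.085). Among PI3P effectors, Wipi1 fell by 0.74 on the log2 scale (adjusted p = 0.0203), a call that was lost without untreated replicate 1 (adjusted p = 0.0602) or day-6 replicate 3 (0.0651).

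In the conjugation machinery 2 genes fell and 1 rose. Atg10 (gene 66795, chromosome 13, 90935348 to 91224789) joins ATG12 to ATG5. It was at 12.2, 14, 21.5 and 15.8 CPM untreated and at 9.89, 6.53, 7.53 and 7.88 CPM at day 6, with no overlap and a log2 change of -0.99 ± 0.206 (adjusted p = 0.00089). Atg7 (gene 74244), the activating enzyme of the system, fell from 107 ± 11.7 to 70.0 ± 5.97 CPM (SD, n = 4 and 4), with -0.61 as its log2 change. Atg3, which loads ATG8 proteins onto lipid, rose from 9.14 ± 1.20 to 12.5 ± 0.772 CPM (adjusted p = 0.026), a call lost without any one of 4 libraries: untreated replicates 1 and 2 (adjusted p = 0.0785 and 0.0543) and day-6 replicates 1 and 2 (0.0717 and 0.0504). Atg4a, Atg4b, Atg5, Atg12 and Atg16l1 did not pass, with log2 changes of -0.35 to 0.11.

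Of the 5 ATG8 genes 3 fell. Map1lc3b (gene 67443, chromosome 8, 121590468 to 121598047) was at 171, 171, 179 and 178 CPM untreated and at 138, 128, 139 and 125 CPM at day 6. Its log2 change was modest but steady across libraries, at -0.40 ± 0.066 (adjusted p = 0.000137). Gabarapl1 (gene 57436) fell from 152 ± 20.8 to 93.9 ± 3.69 CPM, with -0.69 as its log2 change, and Map1lc3a, a low member, from 8.53 ± 0.743 to 4.92 ± 0.296 CPM. Gabarap and Gabarapl2 had log2 changes of -0.14 and -0.20 and did not pass.

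All 3 cargo receptors fell. Sqstm1 (gene 18412, chromosome 11, 50200152 to 50210820), which links ubiquitinated cargo to ATG8 proteins and is itself degraded by autophagy, was at 200, 178, 196 and 188 CPM untreated and at 173, 133, 138 and 131 CPM at day 6. Day-6 replicate 1 lay closest to the untreated libraries, and the groups did not overlap (log2 change -0.41 ± 0.092, adjusted p = 0.00173). Nbr1 fell from 158 ± 9.76 to 111 ± 5.50 CPM. Optn (gene 71648, chromosome 2, 5020519 to 5064112), a receptor in mitophagy, was at 9.83, 8.71, 10.7 and 10.9 CPM untreated and at 4.87, 5.25, 3.76 and 6.79 CPM at day 6, a log2 change of -0.96 ± 0.265 (adjusted p = 0.0069).

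Neither transcription factor passed at day 6. Tfeb was at 16.7, 21.0, 14.2 and 19.5 CPM untreated and at 15.6, 14.1, 14.8 and 17.6 CPM at day 6, with overlapping groups and a log2 change of -0.20 ± 0.197 (adjusted p = 0.403). Tfe3 had a log2 change of -0.087.

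Of the 5 lysosome genes 3 were called higher, Ctsd and Ctsb through day-6 replicate 1. Lamp1 (gene 16783, chromosome 8, 13159161 to 13175338) was at 133, 150, 160 and 168 CPM untreated and at 331, 210, 218 and 212 CPM at day 6. All 4 day-6 libraries were above all untreated ones, replicate 1 by far the most (log2 change 0.67 ± 0.128, adjusted p = 0.000454). Without that library the log2 change was 0.48 (adjusted p = 0.000333). Ctsd (gene 13033, chromosome 7, 142375916 to 142387870) was at 251.02, 302, 269 and 255 CPM untreated and at 1321, 278, 270 and 347 CPM at day 6. Ctsb (gene 13030, chromosome 14, 63122462 to 63145923), the cysteine protease cathepsin B, was at 181, 257, 217 and 239 CPM untreated and at 1090, 216, 234 and 284 CPM at day 6. Both rises, with log2 changes of 1.04 and 1.03 (adjusted p = 0.0324 and 0.0378), were carried by day-6 replicate 1, while the other 3 day-6 libraries lay within or near the untreated range.

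Without day-6 replicate 1 the count of members that rose was 1, where 3114 of 13096 tested genes rose. The log2 change of Ctsd was then 0.14 (adjusted p = 0.324) and that of Ctsb 0.13 (adjusted p = 0.48). Both calls were also lost without untreated replicate 1, 3 or 4, and that of Ctsb without untreated replicate 2 (adjusted p = 0.051 to 0.094). That library also held the macrophage transcripts: Csf1r was at 96.4, 6.11, 1.46 and 10.5 CPM in day-6 replicates 1 to 4, Mrc1 at 81.5, 6.11, 6.07 and 21.2 CPM and Adgre1 at 46.9, 4.12, 3.76 and 10.7 CPM. Of the 18 macrophage markers 16 were tested, 11 of them higher at day 6 and 0 lower. Lamp2, the second membrane glycoprotein, and Ctsl, the cysteine protease cathepsin L, did not pass (log2 changes -0.066 and -0.19). Of the HOPS core, Vps11 fell by 0.38 on the log2 scale (adjusted p = 0.0146, and 0.0508 without untreated replicate 1), and Vps18 did not pass. Read from intron counts, 1 member rose and 13 fell at day 6, where 2153 of 14996 tested genes rose and 1910 fell. Atg14, Sqstm1, Optn and Lamp1 were then not called (adjusted p = 0.335, 0.141, 0.0632 and 0.201).

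**Figure D2:**
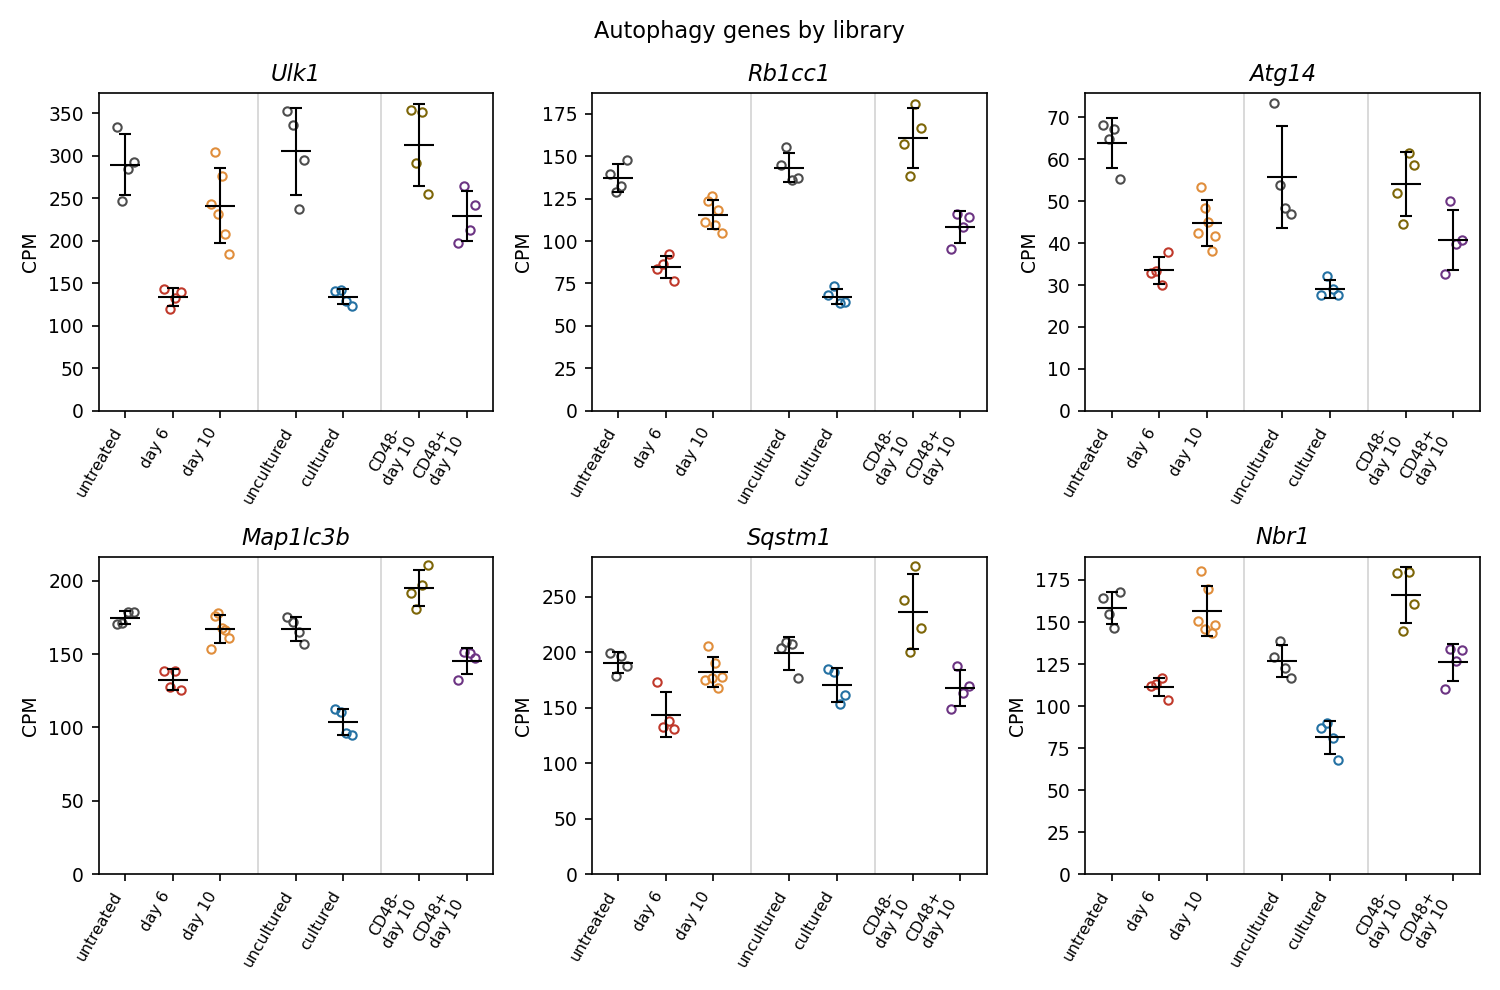
CPM of 6 autophagy genes in each of the 30 libraries by group; open points are libraries, and horizontal lines and bars are the mean and SD, with grey lines between the 3 experiments. Ulk1 lies at 120 to 143 CPM in the day-6 and at 124 to 141 CPM in the cultured libraries, below every control library.

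**Figure D3:**
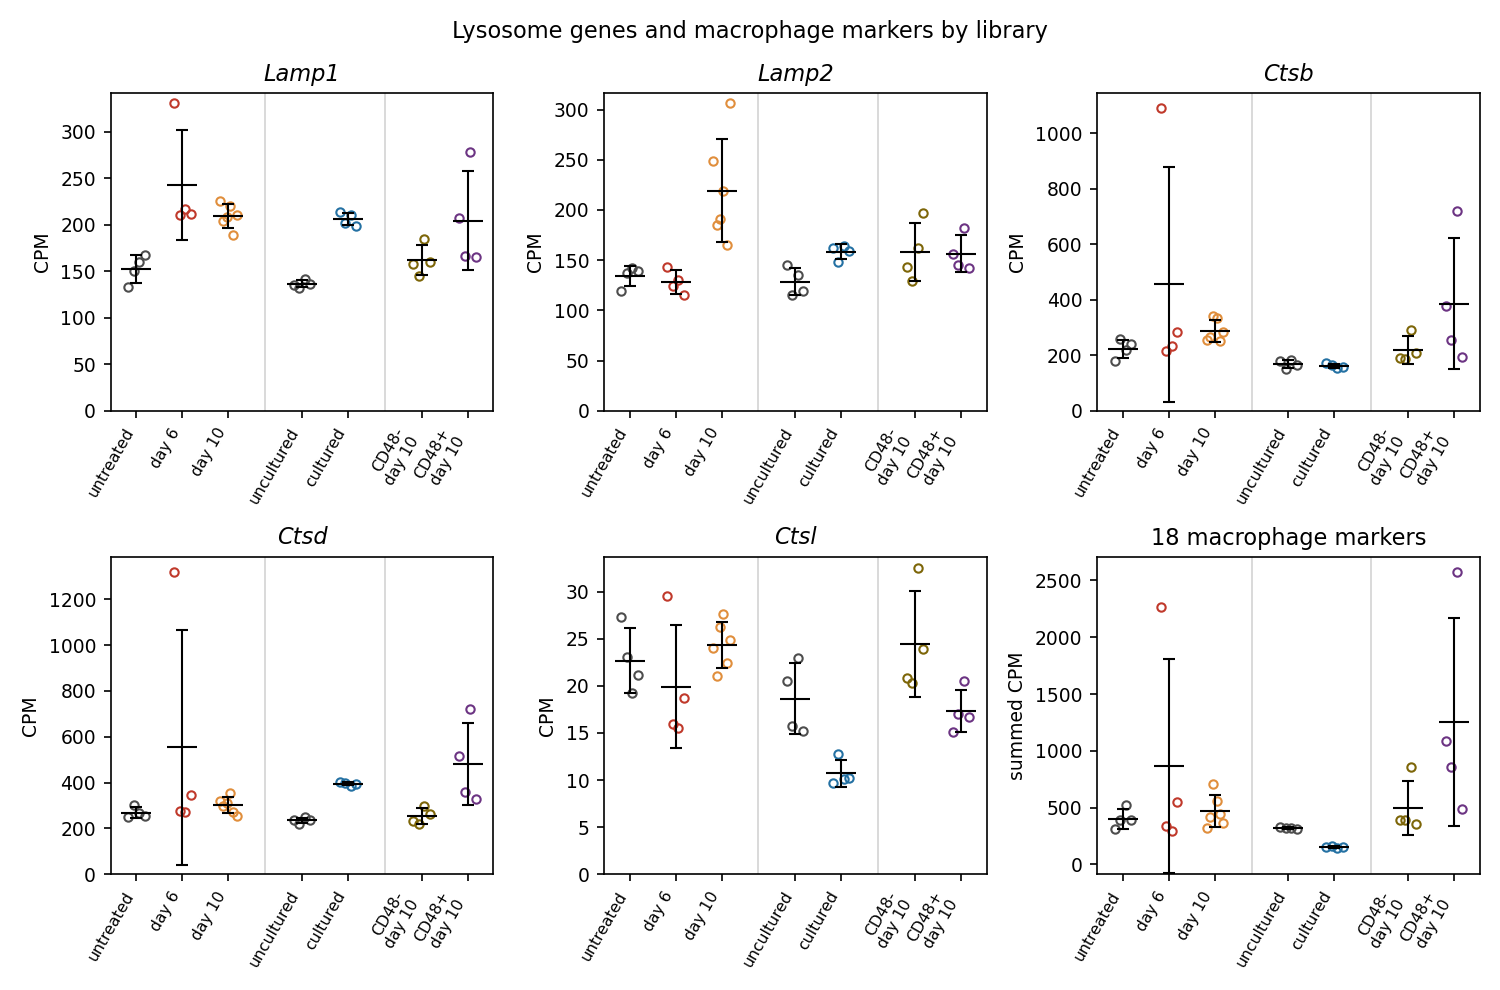
CPM of 5 lysosome genes, and the summed CPM of 18 macrophage markers, in each of the 30 libraries by group; open points are libraries, and lines and bars are the mean and SD. Day-6 replicate 1 stands apart for Ctsb (1090 CPM), Ctsd (1321 CPM) and the macrophage sum (2266 CPM).

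The second comparison set HSCs 10 days after 5-FU against the same untreated libraries, so the 2 comparisons share their controls. By day 10 the kinase, LC3B and p62 genes were no longer called, while both LAMP genes were higher and a group around Atg7, Atg10, Atg14, Gabarapl1 and Tfeb was lower. In all, 4 of 38 genes rose and 7 fell, where 19.9% of 12886 tested genes rose and 18.1% fell. The members' median log2 change was 0.025, against -0.0043 over all tested genes.

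Lamp2 (gene 16784, chromosome X, 38401357 to 38456463), which serves the uptake and fusion functions of the lysosome, was at 120, 137, 142 and 139 CPM untreated and at 165, 205 and 306 CPM as the lowest, median and highest of 6 day-10 libraries. No day-10 library reached down to the untreated range, and the log2 change was 0.71 ± 0.141 (adjusted p = 0.00121). Lamp1 ranged from 190 over a median of 210 to 226 CPM at day 10, above all untreated libraries (log2 change 0.46 ± 0.118, adjusted p = 0.00667). Wipi2 (gene 74781, chromosome 5, 142629535 to 142669672), a PI3P effector that recruits ATG16L1, was at 150, 128, 127 and 137 CPM untreated and at 153, 159 and 170 CPM as the lowest, median and highest at day 10. The rise was small, with a log2 change of 0.25 ± 0.061 (adjusted p = 0.00498). Uvrag also rose by a log2 change of 0.24, with overlapping groups, and the call was lost without any one library other than untreated replicate 3 and day-10 replicate 2 (adjusted p = 0.0547 to 0.128).

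Atg10 had 8.72, 9.10 and 12.9 CPM as its lowest, median and highest at day 10, a log2 change of -0.71 ± 0.183 from untreated HSCs (adjusted p = 0.00676). Its highest day-10 library overlapped the lowest untreated one. Gabarapl1 was at 168, 121, 158 and 160 CPM untreated and at 87.1, 94.0 and 100 CPM as the lowest, median and highest at day 10, with no overlap (log2 change -0.68 ± 0.082, adjusted p = 2.49e-05). Tfeb (gene 21425, chromosome 17, 47737037 to 47792416) was at 8.32, 11.0 and 16.2 CPM as the lowest, median and highest at day 10. It fell by 0.61 on the log2 scale (adjusted p = 0.0149), a call lost without untreated replicate 2 (adjusted p = 0.052). Atg7 fell by 0.61, Atg14 by 0.51, Vps11 by 0.34 and Rb1cc1 by 0.25 on the log2 scale. The call of Rb1cc1 was lost without untreated replicate 4 (adjusted p = 0.0582), and that of Vps11 without untreated replicate 1 or 2 or day-10 replicate 1, 4 or 5 (adjusted p = 0.0504 to 0.0903). Read from intron counts, 2 members were lower, where 1246 of 14996 tested genes were. With the libraries high in transcripts of other cells left out 3 were lower, where 1423 of 12918 tested genes were. Rb1cc1, Atg10, Tfeb and Vps11 lost their calls in both (adjusted p = 0.0517 to 0.948).

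Ulk1 was at 184, 237 and 304 CPM as its lowest, median and highest at day 10, a log2 change of -0.26 ± 0.121 from untreated HSCs that did not pass (adjusted p = 0.097). It passed without day-10 replicate 2 (log2 change -0.33, adjusted p = 0.0249). Map1lc3b and Sqstm1 differed from untreated HSCs by log2 changes of -0.065 ± 0.060 and -0.063 ± 0.083, neither passing (adjusted p = 0.416 and 0.584). Ctsd and Ctsb, with log2 changes of 0.17 and 0.37, did not pass either. Of the 16 tested macrophage markers 6 were higher and 0 lower at day 10, with a summed level of 323 to 710 CPM against 313 to 524 CPM in untreated HSCs.

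A further comparison set day 10 against day 6, whose libraries are those of the first comparison. Every called member was higher at day 10: 14 of 38 rose and 0 fell, where 14.7% of 12886 tested genes rose and 15.9% fell. The members' median log2 change was 0.25, against -0.016 over all tested genes. At an unadjusted p under 0.05 in edgeR 3 members were lower at day 10. DESeq2 called 15 higher and 0 lower, where it called 2087 and 2154 of 12886 tested genes. With all 30 libraries in 1 fit 1 member was lower, where 2189 of 13468 tested genes were. Without day-10 replicate 5 the count was 2, where it was 2135 of 12838 tested genes.

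Wipi1 (gene 52639, chromosome 11, 109573521 to 109611389), a PI3P effector, was at 6.79, 8.80, 4.01 and 6.02 CPM at day 6 and at 10.3, 11.9 and 17.8 CPM as the lowest, median and highest at day 10. Its log2 change of 1.04 ± 0.227 was the largest among the members (adjusted p = 0.00324). Ulk1 rose by 0.85 ± 0.125 on the log2 scale (adjusted p = 0.000245), from a highest day-6 library of 143 CPM to a lowest day-10 library of 184 CPM. Lamp2 rose from 143, 125, 130 and 116 CPM at day 6 to the day-10 levels given above (log2 change 0.77 ± 0.141, adjusted p = 0.00108). All 3 genes kept their groups apart. Map1lc3b rose by 0.33 ± 0.060 (adjusted p = 0.00103) and Sqstm1 by 0.34 ± 0.084 (adjusted p = 0.00677) on the log2 scale.

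Map1lc3a, Atg13, Nbr1, Rb1cc1, Atg14, Atg9a, Wipi2, Atg12 and Gabarap rose as well, by 0.24 to 0.63 on the log2 scale. Atg9a, which brings lipid to the growing membrane, went from 89.7 ± 7.32 (n = 4) to 118 ± 12.8 CPM (SD, n = 6). The call of Gabarap was lost without any one library other than day-6 replicate 1 and day-10 replicate 3 (adjusted p = 0.0502 to 0.141). Tfeb and Lamp1 did not pass (log2 changes -0.40 and -0.21, adjusted p = 0.101 and 0.178), though Tfeb passed without day-10 replicate 5 (log2 change -0.55, adjusted p = 0.0244).

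The contrasts with day 6 and with untreated HSCs share libraries, so the levels of the other members that fell at day 6 are set side by side without a count across contrasts. Nbr1 was at 158 ± 9.76 CPM untreated, 111 ± 5.50 CPM at day 6 and 156 ± 15.0 CPM at day 10 (SD, n = 4, 4 and 6), and Atg13 at 79.7 ± 8.92, 60.4 ± 7.47 and 86.7 ± 8.21 CPM. For both the day-10 mean lay within 1 SD of the untreated one. Atg14 was at 63.9 ± 5.93, 33.5 ± 3.24 and 44.9 ± 5.44 CPM, between the other levels at day 10. Atg7 was at 107 ± 11.7, 70.0 ± 5.97 and 70.1 ± 7.88 CPM and Gabarapl1 at 152 ± 20.8, 93.9 ± 3.69 and 94.7 ± 4.84 CPM, so that their day-6 and day-10 levels overlapped.

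**Figure D4:**
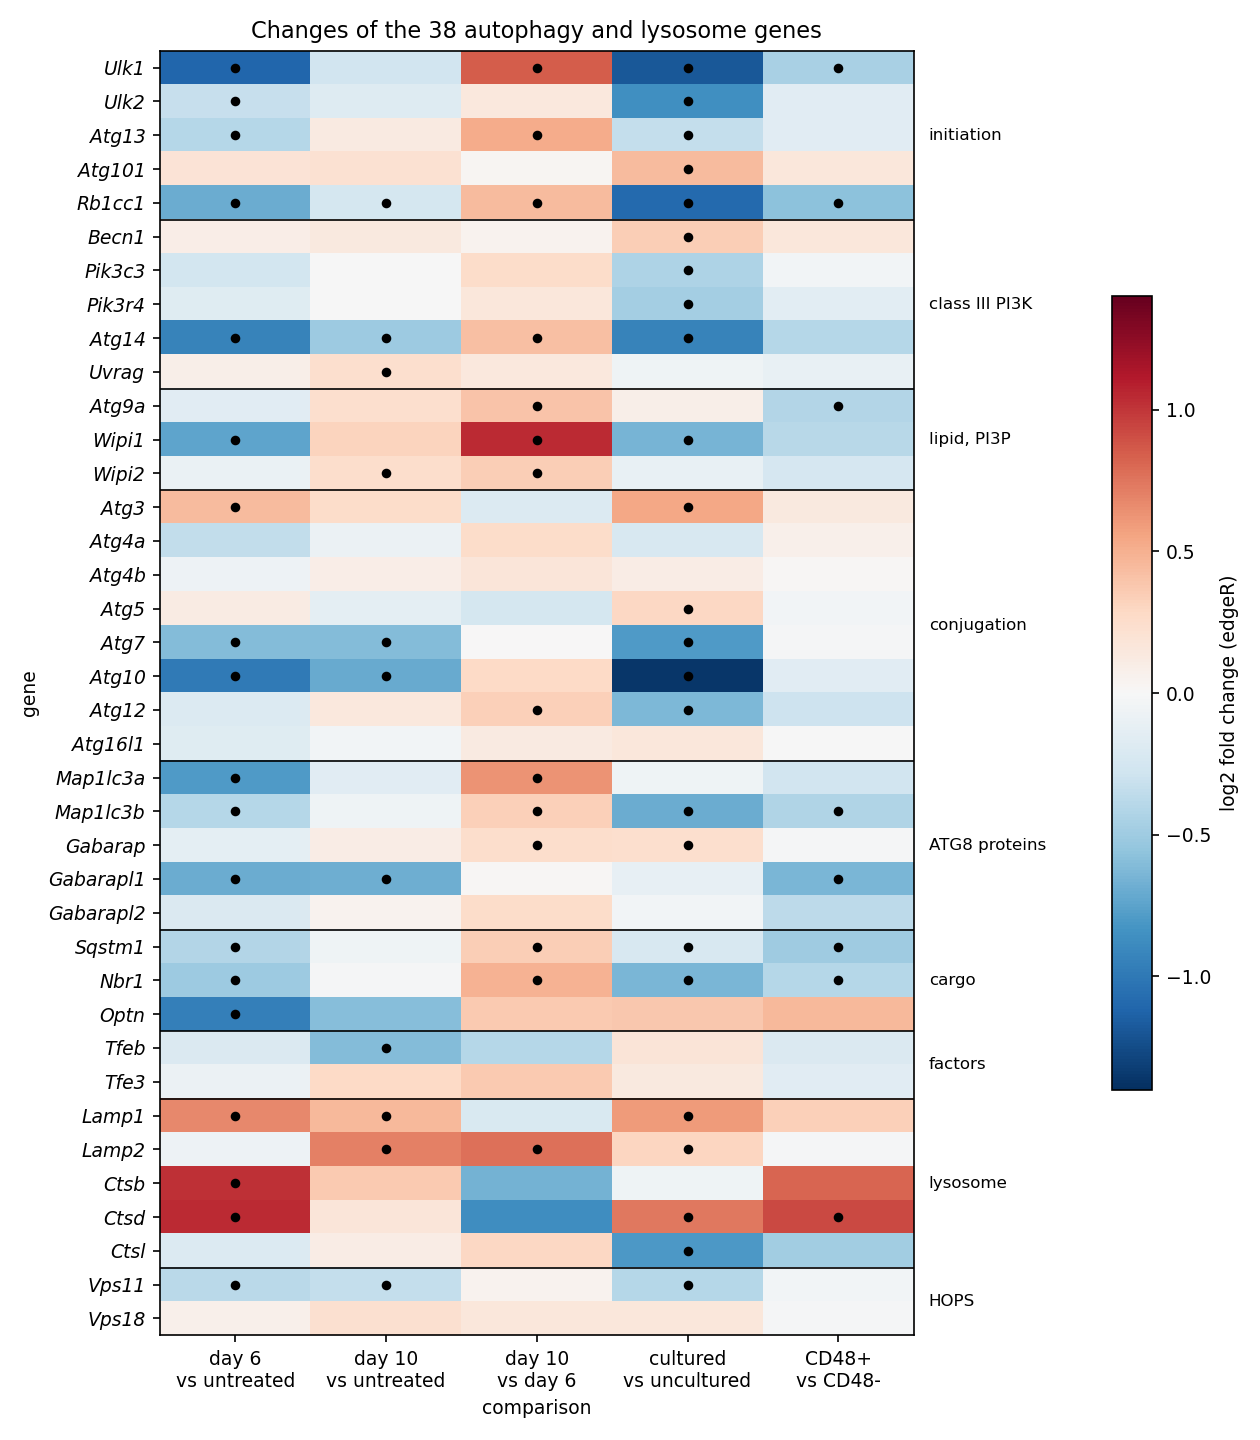
Log2 fold changes from edgeR of the 38 genes (rows, by role) in the 5 comparisons (columns), from blue for lower to red for higher; black dots mark an adjusted p under 0.05. Dots lie on blue cells for 15 genes at day 6 and for 16 in culture, and on red cells for all 14 dotted genes of day 10 against day 6.

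The culture experiment asked what 1 day outside the bone marrow does to HSCs of untreated mice. Atg10, Ulk1, Rb1cc1, Atg14, Ulk2 and Atg7 were lower, and so were the PI3-kinase subunits Pik3c3 and Pik3r4, while Ctsd, Lamp1, Lamp2 and Becn1 were higher. In all, 8 of 38 genes rose and 16 fell, where 33.8% of 12386 tested genes rose and 33.8% fell. The members' median log2 change was -0.082, against -0.0097 over all tested genes.

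Atg10 was at 17.5, 16.9, 16.2 and 19.0 CPM uncultured and at 6.13, 4.86, 8.38 and 7.80 CPM cultured. The highest cultured library was far below the lowest uncultured one, and the log2 change was -1.36 ± 0.202 (adjusted p = 6.42e-05). Ulk1 was at 352, 336, 237 and 295 CPM uncultured and at 141, 141, 129 and 124 CPM cultured (log2 change -1.19 ± 0.110, adjusted p = 1.02e-06). Rb1cc1 was at 145, 155, 136 and 137 CPM uncultured and at 68.2, 73.6, 63.7 and 63.8 CPM cultured (log2 change -1.09 ± 0.079, adjusted p = 1.18e-07). These 3 were the largest falls among the members, and in each the groups stood apart. Ulk2 fell by 0.86 and Atg13 by 0.33 on the log2 scale, whereas Atg101 rose by 0.44 (adjusted p = 0.0185, and 0.05 or 0.0538 without cultured replicate 1 or 2).

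Of the PI3-kinase genes, Atg14 fell by 0.93, Pik3r4 by 0.47 and Pik3c3 by 0.44 on the log2 scale, and Becn1 rose from 45.9 ± 5.81 to 58.3 ± 3.28 CPM (SD, n = 4 and 4). Wipi1 fell by 0.65, a call lost without uncultured replicate 3 or cultured replicate 2, 3 or 4 (adjusted p = 0.0565 to 0.131). In the conjugation machinery Atg7 fell from 108 ± 1.66 to 62.3 ± 4.87 CPM and Atg12, the ubiquitin-like protein joined to ATG5, from 72.4 ± 8.45 to 46.8 ± 3.13 CPM. Atg3 was at 15.7, 11.3, 10.8 and 8.80 CPM uncultured and at 14, 17.1, 18.2 and 18.8 CPM cultured. Its groups overlapped, and its rise (log2 change 0.55 ± 0.198, adjusted p = 0.0269) was lost without any one of uncultured replicates 3 and 4 and cultured replicates 3 and 4 (adjusted p = 0.0571 to 0.0701). Atg5 rose by 0.29, lost without uncultured replicate 3 or 4 or cultured replicate 3 (adjusted p = 0.0553 to 0.0689).

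Map1lc3b was at 175, 172, 165 and 157 CPM uncultured and at 113, 110, 96.6 and 95.1 CPM cultured. It fell by 0.69 ± 0.079 on the log2 scale (adjusted p = 6.45e-06). Gabarap rose by 0.23, the single rise among ATG8 genes, which was lost without any one library other than uncultured replicate 2 and cultured replicate 1 (adjusted p = 0.056 to 0.125). Sqstm1 was at 204, 209, 207 and 177 CPM uncultured and at 185, 182, 153 and 162 CPM cultured, with overlap. Its fall of 0.22 (adjusted p = 0.0296) was lost without any one of uncultured replicates 2 and 3 and cultured replicates 3 and 4 (adjusted p = 0.0637 to 0.121). Nbr1 fell by 0.64 on the log2 scale. Tfeb was at 12.0, 24.0, 24.9 and 18.2 CPM uncultured and at 25.1, 22.7, 20.1 and 22.0 CPM cultured and did not pass (log2 change 0.18 ± 0.201, adjusted p = 0.447).

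Among lysosome genes Ctsd was at 236, 221, 249 and 237 CPM uncultured and at 401, 399, 384 and 395 CPM cultured. The cultured libraries were close to each other and well above the uncultured ones (log2 change 0.74 ± 0.059, adjusted p = 2.64e-07). Here the sum of the 18 macrophage markers was lower in cultured HSCs, at 143 to 159 CPM against 310 to 326 CPM, and 7 of the 18, among them Adgre1 and C1qa, were at 0 in all 4 cultured libraries. The uncultured libraries differed in other transcripts: summed neutrophil markers were at 2277, 101, 80.0 and 1487 CPM in replicates 1 to 4, against 10.4 to 15.9 CPM cultured, and erythroid markers at 3092, 84.4, 4740 and 82.9 CPM, against 480 to 659 CPM. Megakaryocyte markers reached 1013 CPM in uncultured replicate 2 and stromal markers 411 CPM in replicate 1. With uncultured replicates 1 to 3 left out, replicate 4 is the only control and also held neutrophil transcripts, so no count is given. The part of these transcripts was not tested. Lamp1 was at 135, 132, 142 and 137 CPM uncultured and at 214, 202, 210 and 199 CPM cultured (log2 change 0.60 ± 0.061, adjusted p = 2.39e-06). Lamp2 rose by 0.30, and Ctsl fell by 0.80 on the log2 scale. Ctsb did not pass (log2 change -0.065, adjusted p = 0.47). Vps11 fell by 0.40, a call lost without uncultured replicate 2 or 4 or cultured replicate 2, 3 or 4 (adjusted p = 0.0514 to 0.107). Read from intron counts, 3 members rose and 16 fell in culture, where 3256 of 14291 tested genes rose and 3513 fell. Ctsd, Lamp2 and Atg14 were then not called (adjusted p = 0.0791, 0.0792 and 0.131).

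The day-6 and culture effects rest on separate controls and can be set side by side. Of the 15 members that fell at day 6 and the 16 that fell in culture, 12 were the same genes, which is 80% of the first and 75% of the second set. Over all tested genes the shares were 76.6% of 3314 and 60.7% of 4182 genes. They were Ulk1, Ulk2, Atg13, Rb1cc1, Atg14, Wipi1, Atg7, Atg10, Map1lc3b, Sqstm1, Nbr1 and Vps11. Of the 4 that rose at day 6 and the 8 that rose in culture, 3 were the same, Atg3, Lamp1 and Ctsd, which is 75% and 37.5%, against 84.1% of 3308 and 66.5% of 4187 genes over all tested genes. The difference between the effects, culture minus day 6, was tested in 1 fit of all 30 libraries. It was higher for 2 members and lower for 5, where 6.36% of 13468 tested genes were higher and 8.77% lower.

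Optn had the widest difference, at 1.31 ± 0.40 on the log2 scale (adjusted p = 0.0254). It was at 14, 10.1, 10.5 and 5.81 CPM uncultured and at 14.5, 12.4, 15.0 and 10.6 CPM cultured, a log2 change of 0.38 that did not pass, where at day 6 it had fallen by 0.96. Gabarapl1 differed by 0.55 ± 0.122 (adjusted p = 0.00225), at 120 ± 9.43 CPM uncultured and 111 ± 1.62 CPM cultured. Ulk2 differed by -0.55, Atg12 by -0.46, Rb1cc1 by -0.42, Pik3r4 by -0.33 and Map1lc3b by -0.31, so these had the more negative change in culture. With each library left out in turn, the differences of Gabarapl1, Ulk2 and Rb1cc1 kept their calls. That of Optn was lost without day-6 replicate 3, uncultured replicate 4 or cultured replicate 3, and that of Atg12 without day-6 replicate 1, uncultured replicate 1 or cultured replicate 4 (adjusted p = 0.0501 to 0.0653). That of Map1lc3b was lost without day-6 replicate 1 or 3, uncultured replicate 1 or cultured replicate 3 or 4 (adjusted p = 0.056 to 0.0697), and that of Pik3r4 without any one library other than untreated replicate 1, day-6 replicate 2 and cultured replicate 2 (adjusted p = 0.0531 to 0.114). With the libraries high in transcripts of other cells left out, uncultured replicate 4 alone is left as a control, so no count is given. For Ulk1, Atg14, Atg10, Lamp1 and Ctsd the difference did not pass (adjusted p = 0.401 to 0.95).

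**Figure D5:**
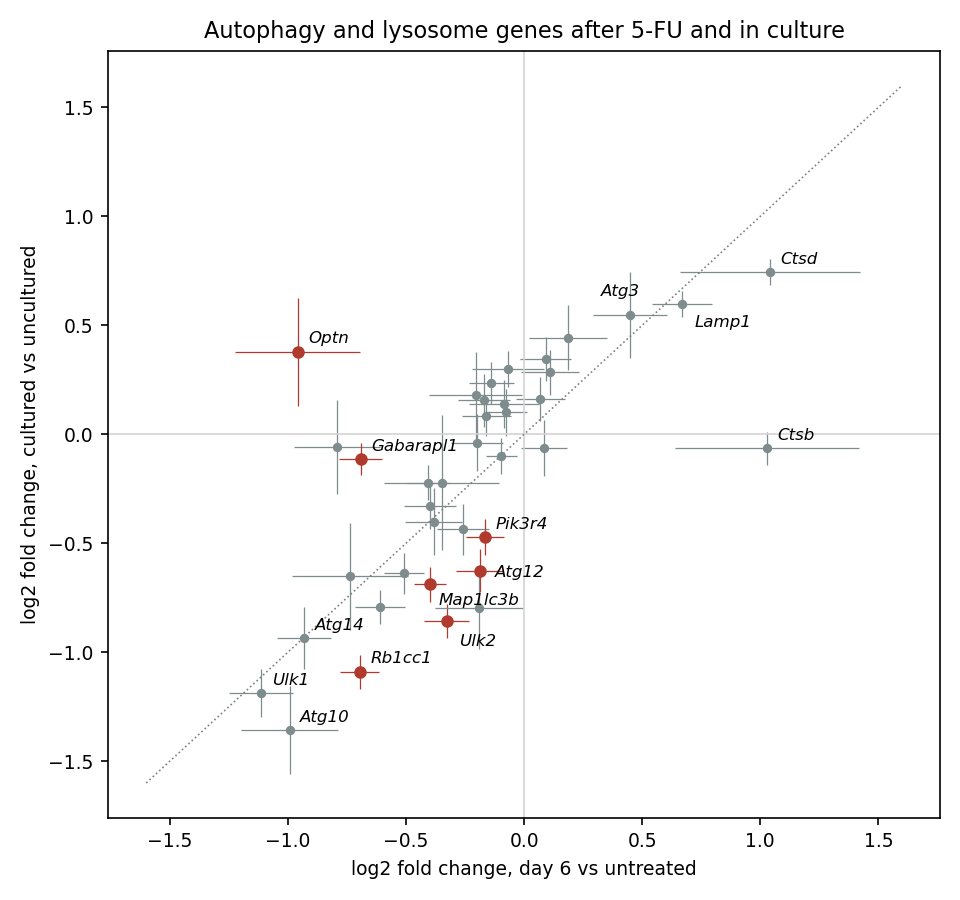
Log2 fold change of the 38 genes at day 6 against untreated (x axis) and in culture against uncultured (y axis), with SE bars; the dotted line marks equal change and red points the 7 genes whose difference passed in the fit of all 30 libraries. Ulk1 lies near the line at -1.11 and -1.19, while Optn lies at -0.96 and 0.38.

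The last comparison set CD48+ progenitors against CD48- HSCs, both 10 days after 5-FU. In progenitors the ATG8 genes Gabarapl1 and Map1lc3b (2 of 5), the cargo receptors Sqstm1 and Nbr1 (2 of 3), the initiation genes Rb1cc1 and Ulk1 (2 of 5) and Atg9a were lower, and Ctsd was higher. In all, 1 of 38 genes rose and 7 fell, where 14% of 12719 tested genes rose and 12.5% fell. The members' median log2 change was -0.15, against -0.011 over all tested genes.

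Gabarapl1 was at 106, 97.1, 89.6 and 91.3 CPM in CD48- and at 59.0, 60.9, 56.1 and 71.1 CPM in CD48+ cells, with no overlap (log2 change -0.64 ± 0.101, adjusted p = 0.00135). Rb1cc1 was at 157, 139, 181 and 166 CPM in CD48- and at 95.1, 116, 108 and 114 CPM in CD48+ cells (log2 change -0.57 ± 0.102, adjusted p = 0.0025). Sqstm1 was at 247, 200, 278 and 222 CPM in CD48- and at 149, 188, 163 and 170 CPM in CD48+ cells (log2 change -0.50 ± 0.113, adjusted p = 0.00836). In each of these 3 genes every CD48+ library was below every CD48- library. Map1lc3b fell from 195 ± 12.2 to 146 ± 8.87 CPM, Nbr1 from 166 ± 16.7 to 126 ± 11.0 CPM and Atg9a from 142 ± 12.3 to 107 ± 12.9 CPM (SD, n = 4 and 4). Ulk1 was at 353, 292, 351 and 254 CPM in CD48- and at 198, 264, 213 and 242 CPM in CD48+ cells, so the groups overlapped. Its fall of 0.45 (adjusted p = 0.0228) was lost without replicate 1 or 3 of either group (adjusted p = 0.0557 to 0.0713).

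Ctsd was at 235, 222, 296 and 264 CPM in CD48- and at 514, 358, 722 and 331 CPM in CD48+ cells. The groups did not overlap, with a log2 change of 0.92 ± 0.214 (adjusted p = 0.00955). The macrophage sum in the same libraries was 387, 394, 854 and 357 CPM in CD48- and 1086, 859, 2574 and 484 CPM in CD48+ cells, and of 17 tested macrophage markers 8 were higher and 0 lower. Summed neutrophil and granulocyte progenitor markers were at 40.5 to 105 CPM in CD48- and 127 to 481 CPM in CD48+ cells, with 4 of 5 tested higher, and lymphoid markers at 32.6 to 40.8 and 132 to 187 CPM, with 1 of 3 tested higher. Their part in the results was not tested. Without replicate 3 of both groups, each the highest of its own group in that sum, and with CD48+ replicates 1 and 2 at 1086 and 859 CPM kept, the log2 change of Ctsd was 0.74 (adjusted p = 0.00908). Without these libraries the count of members that fell was 4, where 1020 of 12733 tested genes fell. Ulk1, Atg9a and Nbr1 were then not called (adjusted p = 0.108, 0.0842 and 0.0594). Whether macrophage transcripts have a part in the remaining rise of Ctsd was not tested. Ctsb, at 190, 188, 291 and 207 CPM against 377, 255, 719 and 193 CPM, and Lamp1, at 158, 145, 184 and 160 CPM against 207, 167, 279 and 165 CPM, were highest in replicate 3 of either group and did not pass (log2 changes 0.82 and 0.34, adjusted p = 0.0896 and 0.133). Tfeb did not pass (log2 change -0.21, adjusted p = 0.464). Read from intron counts, 0 members rose and 1, Rb1cc1, fell, where 955 of 14795 tested genes rose and 800 fell. The 5 PI3-kinase and the 8 conjugation genes held 0 calls, with log2 changes of -0.40 to 0.16.

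Across the 5 comparisons, Rb1cc1 alone among the members was called in all 5, and Ulk1, Atg14, Map1lc3b, Sqstm1 and Nbr1 were called in 4. Another 9 genes were called in 3, 7 in 2 and 10 in 1 comparison. The comparisons of the 5-FU experiment share libraries, so 1 change can be counted there more than once. A tally of this kind over all genes was not made, so these counts are not read as a trait of the members. No comparison called Atg4a, Atg4b, Atg16l1, Gabarapl2, Tfe3 or Vps18. The summed level of all 38 genes was 3300 ± 42.4 CPM in untreated and 3401 ± 140 CPM in day-10 HSCs. At day 6 it was 3302 ± 1049 CPM, with 4871 CPM in replicate 1 and 2691, 2770 and 2875 CPM in the others. These others lay below every untreated library (3239 to 3332 CPM). The sum was 3100 ± 134 CPM uncultured and 2790 ± 105 CPM cultured, and 3450 ± 256 CPM in CD48- against 3410 ± 429 CPM in CD48+ cells. Within each experiment the sums overlapped within SD except in culture, and the overlap at day 6 rested on replicate 1.

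Other genes of the same pathways, from lists of 167 genes that leave out the members, are given by their counts. Of all tested genes 25.7% rose and 25.7% fell at day 6, and 33.8% rose and 33.8% fell in culture. From day 6 to day 10 these shares were 14.7% and 15.9%, and in CD48+ cells 14% and 12.5%. Whether any list differs from these shares was not tested. Of 23 other autophagy machinery genes 3 rose and 9 fell at day 6 and 5 rose and 12 fell in culture. Among them Atg2a, a lipid transfer protein, fell from 196 ± 17.3 to 112 ± 2.00 CPM at day 6 (log2 change -0.80) and rose by 0.53 on the log2 scale from day 6 to day 10. Epg5, a tether of autophagosomes and lysosomes, fell by 0.47 at day 6, while the SNARE gene Ykt6 rose by 0.86 at day 6 and by 0.94 in culture. Of 16 other cargo receptor and mitophagy genes 1 rose and 8 fell at day 6 and 6 rose and 7 fell in culture. The receptor Calcoco1 fell by 1.30 at day 6 and by 2.16 in culture. Phb2, the 1 gene of this list that rose at day 6, rose by 0.96 there and by 1.20 in culture. Tax1bp1 rose by 0.39 in culture. Pink1, a kinase that starts mitophagy on damaged mitochondria, fell from 138 ± 14.5 to 48.1 ± 2.46 CPM in culture and rose by 0.96 from day 6 to day 10 on the log2 scale.

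Of 17 V-ATPase genes, which encode the pump that acidifies the lysosome, 3 rose and 0 fell at day 6 and 8 rose and 1 fell in culture. Atp6v0c, the proton-carrying ring subunit, rose from 122 ± 10.1 to 210 ± 16.6 CPM in culture. Of 41 tested lysosomal hydrolase and cofactor genes 7 rose and 8 fell at day 6 and 8 rose and 16 fell in culture. Gusb and Arsb, enzymes that break down glycosaminoglycans, rose by 0.86 and 1.08 at day 6 and by 1.02 and 1.1 in culture, whereas the protease gene Ctsf fell from 42.4 ± 1.01 to 6.47 ± 1.99 CPM at day 6 and from 31.9 ± 5.15 to 2.02 ± 0.413 CPM in culture. Of 19 tested lysosomal membrane genes 1 rose and 7 fell at day 6 and 5 rose and 9 fell in culture, with Slc38a9, the arginine sensor of the lysosomal surface, falling by 0.77 and 1.95. Of 11 other tethering and fusion genes 2 rose and 3 fell at day 6 and 3 rose and 3 fell in culture.

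Of 38 mTORC1 and nutrient sensing genes 12 rose and 8 fell at day 6, and of 37 tested in culture 15 rose and 9 fell. Slc7a5, an importer of large neutral amino acids, rose from 88.2 ± 13.3 to 279 ± 34.1 CPM at day 6, from 106 ± 29.3 to 498 ± 28.6 CPM in culture, and from 109 ± 30.2 CPM in CD48- to 233 ± 54.9 CPM in CD48+ cells. Sesn3, an inhibitor of mTORC1, fell by 1.00 on the log2 scale at day 6 and rose by 0.64 from day 6 to day 10. Between day 6 and day 10, 7 of the 23 other machinery genes rose and 2 fell, with Vmp1, a membrane scramblase, rising by 0.90. In CD48+ against CD48- cells 1 of the 23 rose and 4 fell, and of the 16 cargo receptor and mitophagy genes 1 rose and 7 fell.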

How the data were processed

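The authors deposited, per the file headers, whole read counts per gene entry (total exon, unique exon and total intron reads) and exon length for each library. Libraries were made with Nextera XT and sequenced on a NextSeq, per the labels' protocols, and the build is mm10, per the submitters' processing notes. For the aligner and counter, a name is not given in the sources used. Total reads include reads that match more than 1 place, so genes with near-identical copies are uncertain.

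Entries were summed by NCBI gene identifier (48737 entries, 46113 genes). Total exon counts were fitted with edgeR 4.0.16 (filterByExpr, TMM, group means, quasi-likelihood F test, Benjamini-Hochberg adjustment) in R 4.3.3, in 1 fit for each experiment of 14, 8 and 8 libraries, and in 1 fit of all 30 for culture minus day 6. TPM used total exon reads and exon length. No 2 libraries of a group agreed within sampling noise (chi-square per degree of freedom 2.39 to 46.5 over 51 pairs). The fits were checked on simulated data. Values per library are given, in each comparison, for the 3 members with the largest called rise and fall and a mean of at least 10 CPM, and for Ulk1, Map1lc3b, Sqstm1, Tfeb and Lamp1 by level or change. Values of some further members are given where a result turned on them, chosen after their values were seen. Genes of the other pathway lists were named from the 2 with the smallest p in each direction, and 1 of these is not reported here. The members, lists and tests were chosen with earlier results of these data known. Alternatives were DESeq2 1.42.0, RLE size factors, no filter, unique exon or intron reads, other sets of libraries in the fit, a replicate block and each library left out.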

Additional observations from a re-analysis of the deposited data

Results flagged for a closer look

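Of 74 groups of 4 to 6 libraries looked at, 8 held a library far from the others, where chance gives about 1 in 20 groups. Day-6 replicate 1 was far above the other day-6 libraries for Ctsd (1321 CPM), Ctsb (1090 CPM), Lamp1 (331 CPM), Sqstm1 (173 CPM) and the sum of all 38 genes (4871 CPM). The same library held 2266 CPM of the 18 macrophage markers, and the part of these transcripts in its values was not tested beyond leaving it out. The sum of all 38 genes was also far above the rest in 1 CD48+ library (4045 CPM). Atg10 was high in day-10 replicate 2 (12.9 CPM), and Sqstm1 was low in uncultured replicate 4 (177 CPM).

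For 7 genes the change in culture differed from the change at day 6 in the fit of all 30 libraries. The difference, culture minus day 6 on the log2 scale, was 1.31 for Optn and 0.55 for Gabarapl1. It was -0.55 for Ulk2, -0.46 for Atg12, -0.42 for Rb1cc1, -0.33 for Pik3r4 and -0.31 for Map1lc3b.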

How the results depend on the processing

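Of 83 calls of members, 31 held in every alternative that tested them, 49 in every such alternative other than intron reads, and 61 with each library left out in turn. The fall of Map1lc3a at day 6, not tested with intron reads, is among the 31. Intron reads took the call from 38 and turned the sign of 5: Ctsb at day 6 (-0.011), Vps11 at day 10 (0.023), and in culture Gabarap (-0.70), Lamp2 (-0.24) and Vps11 (0.084). The cause was not tested. Of members higher at day 6, 2 were called by DESeq2, 2 with the 2 groups alone, and 1 each with the replicate block, with intron reads, with the libraries high in macrophage transcripts left out and with those high in transcripts of other cells left out. Of members lower at day 10, 4 were called with the replicate block, 2 with intron reads and 3 with the libraries high in other cells left out. From day 6 to day 10, 1 was lower with all 30 libraries in 1 fit. In culture 3 were higher with intron reads. In CD48+ cells 2 were higher with the replicate block and 0 with intron reads. There 11 were lower by DESeq2, 12 with all 30 libraries in 1 fit and 1 with intron reads. Of all tested genes 1872 of 12719, 2048 of 13468 and 800 of 14795 were lower in these fits. In this comparison both sets leave out the same libraries, replicate 3 of both groups. Then 4 members were lower, where 1020 of 12733 tested genes were. The difference between culture and day 6 held for 3 members with intron reads. With the libraries high in other cells left out, the lone uncultured library is itself high in neutrophil markers, so no count is given. Both sets of libraries were chosen after seeing the data. Counts in this section describe how calls held and are not read as results about the members.

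With unique exon reads the summed level was 3730 CPM in untreated, 3845 in day-10, 3566 in uncultured, 3146 in cultured, 3922 in CD48- and 3912 in CD48+ libraries, as the scaling then counts fewer reads. Leaving out 1 library gave 1 to 4 higher and 13 to 16 lower at day 6, 3 to 5 and 6 to 8 at day 10, 13 to 16 and 0 to 2 from day 6 to day 10, 5 to 8 and 13 to 16 in culture, 1 to 2 and 6 to 9 in CD48+ cells, and 4 to 7 differences between culture and day 6. The labels do not state whether same-numbered libraries share a mouse or a sort. Deviations of same-numbered libraries correlated at -0.309 to 0.167, and 3 of 20 libraries correlated best with their own number. These values cannot settle whether libraries are paired. The replicate block took the call from 12 of the 83 calls of members. Ctsb and Ctsd at day 6 have no adjusted p in DESeq2, and Gabarap with unique reads and Map1lc3a with intron reads could not be tested. Low members such as Atg4a and Optn rest on as few as 28 and 29 reads in a library, which limits what can be detected for them.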
